A study of Mus musculus with 7 samples.

Results

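The genes described here are 10 scavenger and clearance receptor genes of tissue macrophages, read by symbol from a gene count table of mouse fetal liver. All 10 were found among its 35976 symbols. They are Cd5l, Marco, Msr1, Olr1 and Cd163, which belong to or resemble the scavenger receptors, Mrc1, the mannose receptor, Siglec1, a sialic acid receptor, Vsig4, a complement receptor, and Timd4 and Mertk, which take part in the clearance of dying cells. RNA came from lineage-negative cells of E14.5 fetal liver, the stem and progenitor fraction left after magnetic removal of cells with mature blood markers. The 4 knockout libraries came from CD45.2(+) C57BL/6 embryos with Vav1-iCre and Brd9fl/fl, and the 3 control libraries from CD45.2(+) C57BL/6 embryos with Brd9fl/fl alone. Both groups thus carry loxP-flanked Brd9, which encodes a subunit of non-canonical BAF, a chromatin remodelling complex, and the recombinase, expressed from a promoter active in blood cells, is in every knockout and in no control, so that an effect of the recombinase and an effect of losing Brd9 cannot be told apart. Per the series' design text, both kinds of embryo came from Brd9fl/fl fathers and Vav1-iCre; Brd9fl/fl mothers. The labels do not say whether a library is 1 embryo or a pool, so p-values measure the spread between these libraries only.

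Macrophages of the fetal liver sit at the centre of erythroblastic islands, where they hold maturing red cells and engulf the nuclei these expel. Their scavenger receptors bind modified lipoproteins, bacteria and other polyanionic ligands, and a separate set of receptors recognises phosphatidylserine on dying cells, either directly, as Timd4 does, or through the bridging proteins Gas6 and protein S, as Mertk does. Siglec1 and Vsig4 are markers of resident macrophages in several tissues, and Mrc1 is also made by endothelial cells of the liver sinusoids.

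The libraries held 18748885 to 23571878 counts. Brd9 had 8.57, 11.9, 13.2 and 12.2 CPM (counts as a share of the scaled library total) in the knockouts, against 30.6, 32.2 and 36.5 CPM in the controls, so each library lay on the side of its label (edgeR quasi-likelihood, adjusted p = 0.0037). Progenitor genes went both ways. Kit, a progenitor receptor, averaged 195 CPM in knockouts and 294 CPM in controls. Gata2 averaged 88.0 CPM in knockouts and 62.4 CPM in controls, and Mecom 3.49 and 2.19 CPM. Of the markers of mature lineages, Ms4a1, Cd8a and Ly6g stayed at or under 0.0975 CPM in all 7 libraries, and Cd4 reached at most 1.45 CPM. Cd3e, a T cell gene, had 73 reads (3.46 CPM) in knockout replicate 3 and none in the other 6 libraries. Myeloid transcripts were present in all 7, with the integrin gene Itgam at 23.3 to 56.0 CPM in knockouts and 45.3 to 87.7 CPM in controls, and the granulocyte gene S100a9 at 234 to 664 CPM in knockouts and 531 to 1008 CPM in controls. Macrophage transcripts were present too. Adgre1, which encodes F4/80, had 4.10 to 14.6 CPM in the knockouts and 19.7 to 27.5 CPM in the controls. Other macrophage genes overlapped between groups. Cd68 had 7.70 to 12.3 CPM in the knockouts and 8.14 to 10.8 CPM in the controls, and Lyz2 96.8 to 430 and 153 to 310 CPM. Xist, made from the inactive X of female cells, was at 740 CPM or more in 1 of 4 knockouts (replicate 2) and in 2 of 3 controls (replicates 1 and 3), and at 0.373 CPM or less in the rest.

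All 8 receptors with enough reads to test had lower mean levels in the knockouts. Siglec1, Msr1 and Olr1 fell past the threshold, an adjusted p under 0.05 over the 14679 genes tested (edgeR quasi-likelihood with Benjamini-Hochberg adjustment). In that test 0.545% of all genes were called lower and 0.0136% higher. Cd5l, Marco, Mrc1, Timd4 and Mertk did not pass. DESeq2, a different count test applied to the same libraries, called 7 receptors lower, all but Mertk, where its background of lower calls was 1.9%, and limma-voom called Siglec1 and Olr1, where that background was 0.49%. The groups did not overlap for 7 of the 8, against 6.81% of all tested genes with every knockout below every control. Siglec1 entered the test only through its control libraries, since no knockout reached the minimum of 10 reads at the median depth, so its place among the 8 already required a difference. Cd163 and Vsig4 did not reach that minimum. Fewer macrophages and less RNA per macrophage cannot be told apart in these bulk libraries.

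**Figure D1:**
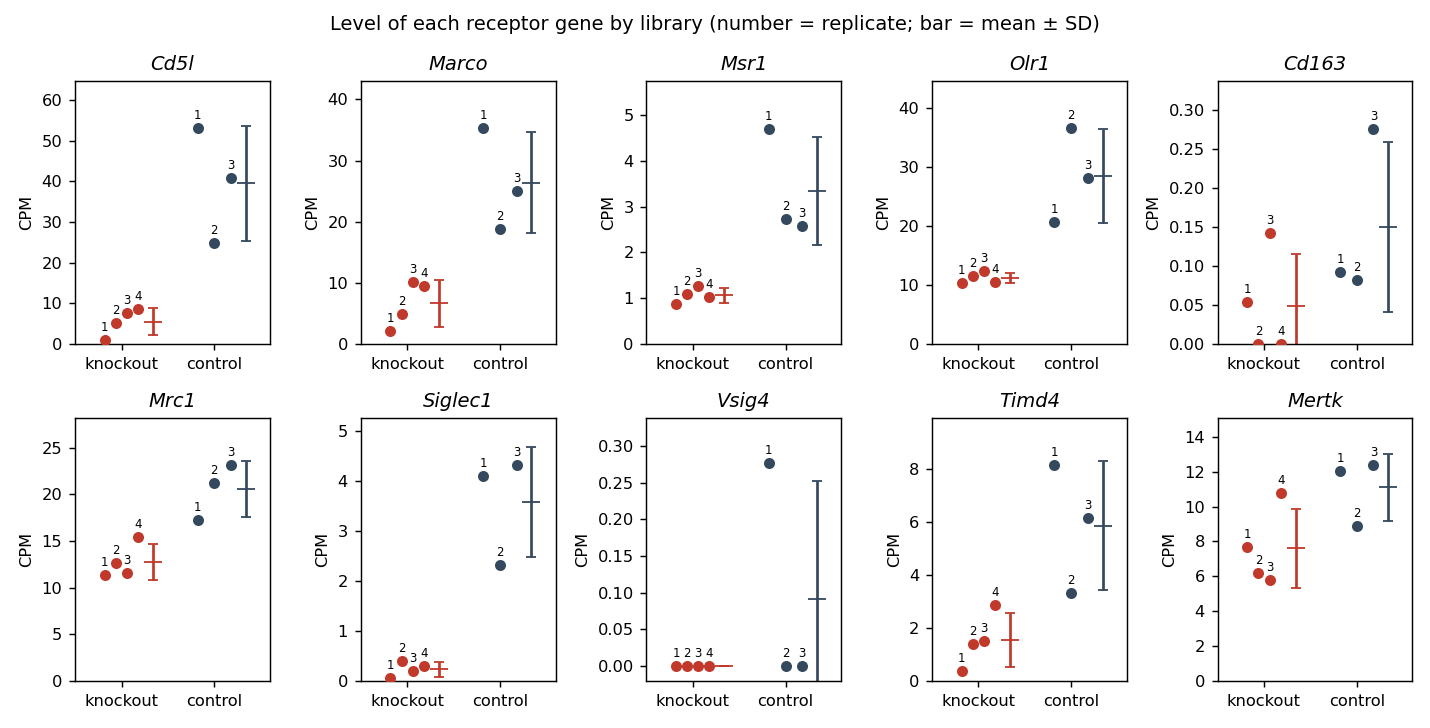
Level of each of the 10 receptor genes in CPM on linear axes, with the 4 knockout libraries on the left and the 3 control libraries on the right of each panel; points carry their replicate number and bars show mean ± SD. Knockout and control points are separate for 7 genes, overlap for Mertk and Cd163, and lie at 0 in all but control replicate 1 for Vsig4.

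Siglec1, or sialoadhesin, a large lectin-like receptor that binds sialic acid on other cells and on pathogens, showed the greatest fall of the 8. It had 0.0546, 0.406, 0.189 and 0.292 CPM in the knockouts, from 1, 9, 4 and 6 reads, against 4.10, 2.32 and 4.32 CPM in the controls, from 89, 56 and 94 reads. Even the lowest control was 5.70 times the highest knockout. The mean was 15.2-fold lower, 0.236 ± 0.150 CPM in knockouts and 3.58 ± 1.10 CPM in controls (SD, n = 4 and 3), with a log2 fold change of -3.86 (95% interval -4.87 to -2.84, edgeR adjusted p = 0.0081). Leaving out control replicate 3 ended this call (edgeR adjusted p = 0.053), the single loss among the 15 alternative settings, whose adjusted p ran from 1.3e-11 to 0.053. Siglec1 lies on the minus strand of chromosome 2, from 131069220 to 131086765 (GRCm38).

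Among the class A scavenger receptors, trimeric proteins with a collagen-like stalk, Msr1 was called and Marco was not. Msr1, a receptor for modified lipoprotein, had 0.874, 1.08, 1.28 and 1.02 CPM in the knockouts, against 4.70, 2.73 and 2.57 CPM in the controls. The knockouts lay close together at 1.06 ± 0.168 CPM, below controls of 3.34 ± 1.18 CPM (SD, n = 4 and 3). The log2 fold change was -1.64 (95% interval -2.29 to -0.98, edgeR adjusted p = 0.0497), a call at the very edge of the threshold. It held in 4 of 15 alternative settings and was lost, among others, without each of the 7 libraries in turn (edgeR adjusted p from 0.054 to 0.155), with limma-voom (0.071) and once the level of Xist entered the fit as a covariate (0.174), and over the 15 settings the adjusted p ran from 4.6e-04 to 0.174. Marco, a receptor of marginal zone and liver macrophages that binds bacteria, had 2.13, 5.01, 10.2 and 9.55 CPM in the knockouts, against 35.3, 18.9 and 25.1 CPM in the controls. Its mean was 3.93-fold lower, with knockouts spread over a 4.78-fold range, and did not pass (log2 fold change -1.97, 95% interval -2.94 to -0.998, edgeR adjusted p = 0.097; DESeq2 adjusted p = 0.037). Msr1 lies on the minus strand of chromosome 8, from 39581685 to 39642673, and Marco on the minus strand of chromosome 1, from 120474538 to 120505024 (GRCm38).

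Olr1, or LOX-1, a lectin-like receptor for oxidised lipoprotein found on endothelial and myeloid cells, fell with the least spread among the knockouts of the 8 tested receptors. Knockouts had 10.4, 11.5, 12.4 and 10.6 CPM, against 20.6, 36.5 and 28.1 CPM in the controls. The 4 knockouts differed by at most 1.19-fold and stood at 11.2 ± 0.900 CPM, below controls of 28.4 ± 7.94 CPM (SD, n = 4 and 3). The log2 fold change was -1.34 (95% interval -1.75 to -0.93, edgeR adjusted p = 0.013). Olr1 kept its call in 11 of 15 alternative settings, with adjusted p from 4.3e-09 to 0.075, and lost it without knockout replicate 1 (edgeR adjusted p = 0.055), knockout replicate 2 (0.065), knockout replicate 4 (0.058) or control replicate 3 (0.075). Olr1 lies on the minus strand of chromosome 6, from 129485244 to 129507165 (GRCm38).

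Cd5l encodes a secreted protein built of the cysteine-rich domains typical of scavenger receptors, is made by tissue macrophages and travels in blood with IgM. It had 0.928, 5.15, 7.63 and 8.53 CPM in the knockouts, against 53.0, 24.8 and 40.8 CPM in the controls. The mean was 7.11-fold lower, 5.56 ± 3.40 CPM in knockouts and 39.5 ± 14.1 CPM in controls (SD, n = 4 and 3), and the lowest control was 2.91 times the highest knockout. In spite of that gap the gene missed the threshold (log2 fold change -2.82, 95% interval -3.97 to -1.67, edgeR adjusted p = 0.054). Knockout replicate 1, at 17 reads where the other knockouts had 114 to 175, was the lowest of its group. Without it Cd5l passed (edgeR adjusted p = 0.025, log2 fold change -2.48), the only 1 of the 7 fits without a single library in which it did. Cd5l was called in 3 of the 15 settings, over which the adjusted p ran from 0.0017 to 0.2. The gene spans 87357881 to 87371073 of chromosome 3 on the plus strand (GRCm38).

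Mrc1, or CD206, the mannose receptor that takes up glycoproteins, differed by less. It had 11.3, 12.6, 11.6 and 15.4 CPM in the knockouts, against 17.3, 21.2 and 23.1 CPM in the controls. The ranges did not touch, but the highest knockout and lowest control were only 1.12-fold apart. The log2 fold change of -0.69 (95% interval -1.03 to -0.34) did not pass in edgeR (adjusted p = 0.102) and passed in DESeq2 (adjusted p = 0.0041).

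The receptors for dying cells differed in size of change. Timd4, which binds phosphatidylserine and marks resident macrophages of embryonic origin, had 0.382, 1.40, 1.52 and 2.88 CPM in the knockouts, against 8.16, 3.31 and 6.16 CPM in the controls. Knockout replicate 4 came within 1.15-fold of control replicate 2, and the 3.81-fold lower mean did not pass (log2 fold change -1.91, 95% interval -3.04 to -0.78, edgeR adjusted p = 0.167; DESeq2 adjusted p = 0.0076). Mertk, a receptor tyrosine kinase of the TAM family, had 7.70, 6.19, 5.78 and 10.8 CPM in the knockouts, against 12.0, 8.90 and 12.4 CPM in the controls. Here the groups overlapped, as knockout replicate 4 lay above control replicate 2. The log2 fold change of -0.54 (95% interval -1.07 to -0.023) passed in none of the 15 settings (edgeR adjusted p = 0.44, DESeq2 adjusted p = 0.376).

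Cd163, which clears haemoglobin bound to haptoglobin, had 1, 0, 3 and 0 reads in the knockouts, against 2, 2 and 6 reads in the controls. Pooled over each group this is 0.0487 CPM in knockouts (exact Poisson 95% interval 0.0133 to 0.125) and 0.148 CPM in controls (0.0709 to 0.272), intervals that overlap and cover counting error only. Vsig4, the complement receptor of liver Kupffer cells, had no read in any knockout, which allows up to 0.0365 CPM by a floor of 3 reads over the group and up to 0.0449 CPM by the exact Poisson 95% interval used for Cd163, and 6 reads in the controls, all in replicate 1. A difference in either gene was not detectable at this depth. No fold is given for either.

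**Figure D2:**
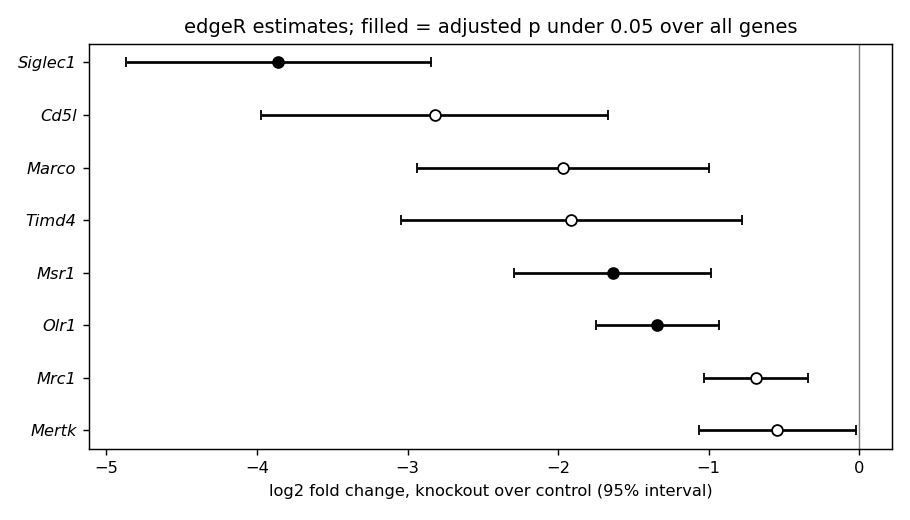
Log2 fold change of the 8 tested receptors, knockout over control, with 95% intervals from edgeR; filled points passed an adjusted p under 0.05 over all genes. Estimates run from -3.86 for Siglec1 to -0.54 for Mertk, and the intervals of all 8 lie below 0, with that of Mertk ending at -0.023.

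The authors' deposited table, made with DESeq2 from the same libraries, lists 7 of the 8 receptors at an adjusted p under 0.05 with a negative log2 fold change, where 1.88% of all genes with an adjusted p are listed so. In the authors' deposited table Siglec1 stands at -3.89 (adjusted p = 1.3e-11), Olr1 at -1.34 (4.3e-09), Msr1 at -1.64 (4.6e-04), Mrc1 at -0.69 (0.0041), Timd4 at -1.93 (0.0077), Cd5l at -2.83 (0.0088) and Marco at -1.98 (0.037). It gives Mertk -0.55 (adjusted p = 0.378) and no adjusted p for Cd163 or Vsig4.

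Set per kilobase of exon, so that genes can be compared with each other, the order of levels differed between the groups. In the knockouts Marco (3.49 ± 1.99 CPM per kb), Olr1 (3.14 ± 0.252) and Cd5l (2.73 ± 1.67) led, followed by Mrc1 (2.0 ± 0.297), Mertk (1.75 ± 0.522), Timd4 (0.710 ± 0.471), Msr1 (0.168 ± 0.0264) and Siglec1 (0.0330 ± 0.0210, SD, n = 4). In the controls Cd5l led with 19.4 ± 6.93 CPM per kb, followed by Marco (13.7 ± 4.29), Olr1 (7.96 ± 2.22), Mrc1 (3.23 ± 0.468), Timd4 (2.70 ± 1.12), Mertk (2.56 ± 0.441), Msr1 (0.526 ± 0.187) and Siglec1 (0.501 ± 0.154, SD, n = 3). Neighbours in that order whose means differed by less than the larger of their SDs were each pair from Marco down to Mertk in the knockouts. In the controls they were Cd5l and Marco, Mrc1 and Timd4, Timd4 and Mertk, and Msr1 and Siglec1. The lengths are those of all GENCODE exons merged, and none of the exons of the 10 genes overlaps an exon of another gene.

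The receptors were also set beside other genes of macrophage identity. Other cells of the fraction may make some of these genes too, so their mean is no measure of the share of macrophages. Over 18 macrophage identity genes, all tested and none at 0 in any library, 16 were lower in the knockouts with a median log2 fold change of -0.79, beside 47.6% lower and a median of 0.011 over all tested genes. None passed in edgeR or limma-voom, where 0.545% and 0.49% of all genes were called lower. In a list of this size 0 calls is near those shares and is no result about the list. At an unadjusted p under 0.05 in edgeR 10 were lower, where 6.9% of all genes were. DESeq2 called 4 lower, where 1.9% of all genes were. These 4 were Mpeg1, a pore-forming protein (15.9 CPM in knockouts, 39.1 CPM in controls), Slc40a1, the iron exporter ferroportin (72.2 and 101 CPM), C1qc, a complement chain (5.90 and 15.0 CPM), and Hmox1, which degrades haem (21.5 and 47.9 CPM). Mean log2 CPM of the list was 2.37, 3.04, 3.48 and 3.49 in the knockouts, against 4.16, 3.74 and 3.92 in the controls, a difference of -0.85. Its summed level was 283 to 708 CPM in the knockouts and 621 to 658 CPM in the controls, with Lyz2, which neutrophils also make, as the largest contributor.

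Relative to that list mean in the same library, Siglec1, Cd5l and Marco still stood lower in every knockout than in any control. The share of all tested genes that stand apart on this relative scale was not worked out, so this is no result about the receptors as a set. Siglec1 also entered the test only through its control libraries. On the log2 scale Siglec1 averaged -4.83 in knockouts and -2.11 in controls, Cd5l -0.97 in knockouts and 1.30 in controls, and Marco -0.56 in knockouts and 0.74 in controls. Timd4 averaged -2.65 in knockouts and -1.45 in controls, with knockout replicate 4 just above control replicate 2. Msr1 and Olr1 differed from the list by less, by -0.68 and -0.45, with overlapping groups. Mrc1 and Mertk moved the other way, with differences of 0.16 and 0.28 and overlapping groups. These relative levels are a description and were not tested, and the log2 scale with a prior count of 2 understates the difference for Siglec1. They also depend on the genes in the list, which moved by unlike amounts. The log2 fold change was -1.34 for C1qc and -0.48 for Slc40a1, and 2 of the 18 genes, Cd68 and Lyz2, were higher with overlapping groups.

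**Figure D3:**
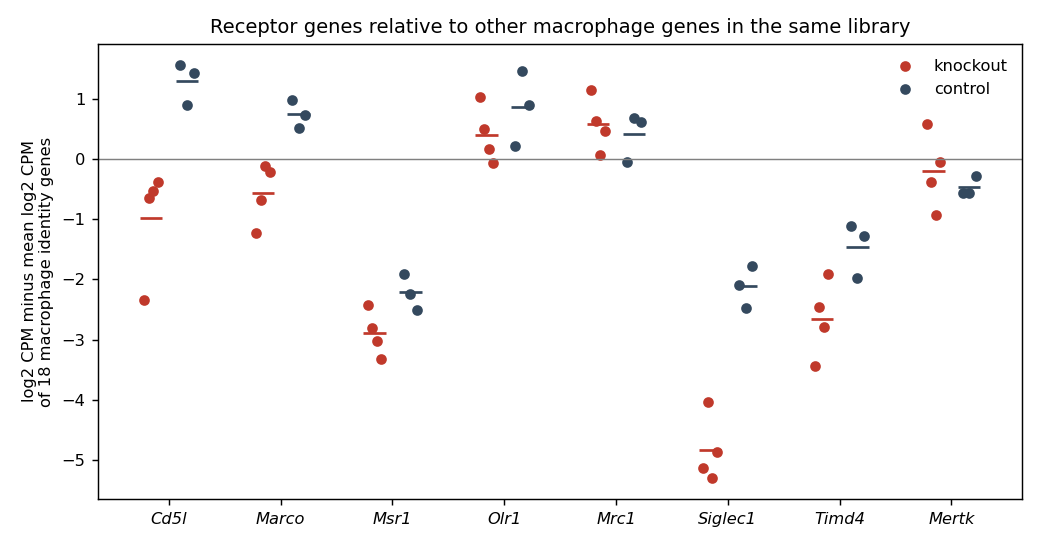
Log2 CPM of each tested receptor minus the mean log2 CPM of 18 macrophage identity genes in the same library, for knockouts (left of each pair) and controls; short lines are group means. Knockout and control points are apart for Cd5l, Marco and Siglec1 and mixed for Msr1, Olr1, Mrc1, Timd4 and Mertk.

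Libraries of a group were ordered differently by different receptors. Among the knockouts, replicate 1 was lowest for 7 of the 8 tested receptors, all but Mertk, and for 13 of the 18 identity genes, 11 of 12 monocyte genes and 12 of 16 neutrophil genes. Among the controls, replicate 2 was lowest for Cd5l, Marco, Siglec1, Timd4 and Mertk, and for 12 of the 18 identity genes. For Olr1 the order was turned round, with control replicate 2 highest and replicate 1 lowest, which was also the case for 15 of 16 neutrophil genes at each end and for 11 of 11 sinusoidal endothelial genes at the high end and 10 of 11 at the low end. Mrc1 was highest in control replicate 3 and lowest in replicate 1. Control replicate 2 is also the only control with low Xist. Within the libraries with low Xist, all 3 knockouts lay below control replicate 2 for 7 of the 8 receptors, with Mertk as the exception, where 30.7% of all tested genes lay so. The knockout with high Xist lay below both such controls for all 8, where 34.4% of all tested genes lay so. These counts use the same libraries as the fold changes above. With the Xist level as a covariate, Siglec1 and Olr1 were called, Msr1 was not, and the log2 fold change of Cd5l was -2.57 (edgeR adjusted p = 0.2).

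**Figure D4:**
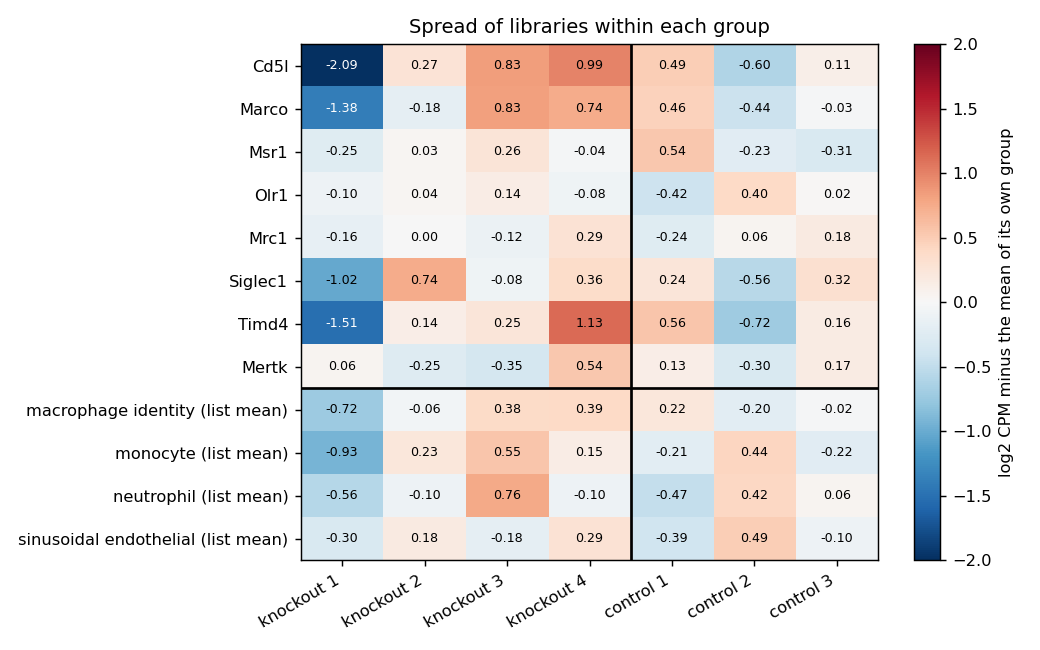
Log2 CPM of each tested receptor, and the mean log2 CPM of 4 marker lists, minus the mean of its own group, for 4 knockout libraries (left) and 3 controls (right). Knockout replicate 1 is lowest for Cd5l (-2.09), Timd4 (-1.51) and Marco (-1.38), and control replicate 2 is low for these genes and high for Olr1 (0.40) and the neutrophil list (0.42).

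Markers of other cell types were counted too, and their part in the receptor results was not tested. Over all tested genes 47.6% were lower, and 0.545% were called lower in edgeR, 0.49% in limma-voom and 1.9% in DESeq2. At an unadjusted p under 0.05 in edgeR 6.9% were lower. In lists of this size, 0 calls in edgeR is near its share. Of 16 neutrophil genes 7 fell, 0 rose and 15 were lower (median log2 fold change -1.32). Camp (-5.31), Fcnb (-3.12), Elane (-2.89), Gfi1 (-1.62), Prtn3 (-1.49) and Ctsg (-1.44) were among those that fell. Mmp8 was the 1 higher gene, with an unadjusted p under 0.05 in edgeR. It had 0.601 to 3.36 CPM in knockouts and 0.092 to 0.745 CPM in controls. The summed level of the 16 genes was 1692 to 3884 CPM in knockouts and 5041 to 8989 CPM in controls. Of 12 monocyte genes F13a1 fell (-3.51), and 11 were lower (median -0.63), with a summed level of 347 to 689 CPM in knockouts and 454 to 644 CPM in controls. All 11 sinusoidal endothelial genes were lower in the mean (median -0.20) and 0 passed in edgeR or limma-voom (2 lower unadjusted, 1 by DESeq2). Control replicate 2 was the highest control for all 11. Mean log2 CPM of the list was 2.97, 3.45, 3.09 and 3.56 in the knockouts, against 3.17, 4.05 and 3.46 in the controls, with overlap. The summed level of these genes was 132 to 184 CPM in knockouts and 137 to 256 CPM in controls. Cdh5, the cadherin of endothelial junctions, had the smallest p of that list, with 10.4 CPM in knockouts and 18.3 CPM in controls. All 11 hepatocyte genes were higher in the mean (median 0.21) and 0 passed in edgeR, DESeq2, limma-voom or unadjusted. Mean log2 CPM of the list was 9.71, 9.17, 9.03 and 9.92 in the knockouts, against 9.23, 8.79 and 9.56 in the controls. The groups overlapped, and control replicate 2 was the lowest library. The summed level of these genes was 13436 to 24050.4 CPM in knockouts and 10624 to 18608 CPM in controls. Of 10 progenitor genes 8 were lower (median -0.08) and 0 passed in edgeR or limma-voom, with Kit lower by DESeq2. Unadjusted, 2 were lower, Kit and Spi1, and 2 higher, Gata2 and Mecom, where 3.95% of all genes were higher so.

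Other genes of scavenging and clearance were counted in the same way, against shares of all genes called lower of 0.545% in edgeR, 1.9% in DESeq2 and 6.9% at an unadjusted p under 0.05. In lists of this size, 0 calls in edgeR is near that share and is no result about the lists. Among 15 tested of 18 other scavenger receptors, 10 were lower (median -0.20) and 0 passed in edgeR or limma-voom, with 2 lower unadjusted and 1, Scarb2, by DESeq2. Scarb2, a lysosomal membrane protein, had 35.9 to 41.2 CPM in knockouts and 51.4 to 52.1 CPM in controls (edgeR adjusted p = 0.066). Its groups did not overlap, where 6.81% of all tested genes had every knockout below every control. Cd36, a receptor for fatty acids and oxidised lipoprotein, averaged 4.85 CPM in knockouts and 6.38 CPM in controls, and Colec12, a scavenger receptor with a lectin domain, 2.61 and 3.46 CPM. Cd14, the lipopolysaccharide co-receptor, averaged 0.514 CPM in knockouts and 1.03 CPM in controls. Scarb1, the receptor for high-density lipoprotein, chosen after its values were seen, was at 143 to 151 CPM in knockouts and 134 to 142 CPM in controls.

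Among 20 tested of 22 genes of apoptotic cell clearance, 10 were lower and 10 higher (median -0.063), and 0 passed in edgeR or limma-voom, with 3 lower unadjusted. Elmo1 and Dock1, which together activate Rac during engulfment, were the 2 that DESeq2 called lower. Dock1 averaged 10.2 CPM in knockouts and 17.8 CPM in controls (edgeR adjusted p = 0.147), and Elmo1 31.0 and 47.2 CPM (edgeR adjusted p = 0.18). Axl, a TAM kinase like Mertk, had 4.04, 8.31, 10.7 and 12.0 CPM in the knockouts, against 19.9, 11.5 and 16.3 CPM in the controls, with overlap. The bridging ligands Gas6 and Pros1 and the integrin ligand Mfge8, chosen after their values were seen, had log2 fold changes of 0.21, -0.17 and 0.17, none of which passed. Of 6 tested of 8 other sialic acid receptors 4 were lower (median -0.28) and 0 passed in edgeR, limma-voom or DESeq2, with 2 lower unadjusted, Siglecf (-0.61) and Siglecg (-0.81). Of 14 erythroblastic island genes 8 were lower (median -0.19), 0 passed in edgeR or limma-voom, and DESeq2 called Slc40a1 and Hmox1 lower and Hba-a1, an adult alpha globin, higher. Hba-a1, which has a near-identical copy, averaged 1282 CPM in knockouts and 660.1 CPM in controls. In the mature lineage list 4 of 11 markers could be tested and 0 passed in edgeR, DESeq2 or limma-voom. Among them Itgam, which encodes CD11b, averaged 44.4 CPM in knockouts and 70.7 CPM in controls.

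Promoter sequence was read for 8 of the 10 genes, all but Msr1 and Siglec1, from RefSeq (GRCm38.p6), as 250 bases before and 50 bases after the transcription start. Letters were searched on both strands for GAGGAA, the core bound by PU.1, TGCTGA, the core bound by MAF proteins, TTGCNNAA, a form of the C/EBP site, and AGGTCA, the core bound by many nuclear receptors; the first of these occurs in 28.3% of all promoters in the table, the others in 19.5%, 10.8% and 16.3%. GAGGAA was present in 5 of the 8, Cd5l, Marco, Mrc1, Olr1 and Vsig4, TGCTGA in 3, Cd5l, Timd4 and Vsig4, AGGTCA in 2, Olr1 and Timd4, and TTGCNNAA in 0. A match is a description of letters and not evidence of binding, and the searched motifs do not overlap in the sequences printed. Sequences of 5 promoters are shown because these are the tested genes whose window holds a match, with all matches in capitals, 5′ to 3′ on the strand of the gene.
Cd5l: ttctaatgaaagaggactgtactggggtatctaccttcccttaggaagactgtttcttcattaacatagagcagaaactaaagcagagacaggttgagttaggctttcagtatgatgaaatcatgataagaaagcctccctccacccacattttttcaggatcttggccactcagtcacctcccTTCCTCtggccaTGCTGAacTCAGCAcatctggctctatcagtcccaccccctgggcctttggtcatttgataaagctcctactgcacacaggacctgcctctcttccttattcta
Marco: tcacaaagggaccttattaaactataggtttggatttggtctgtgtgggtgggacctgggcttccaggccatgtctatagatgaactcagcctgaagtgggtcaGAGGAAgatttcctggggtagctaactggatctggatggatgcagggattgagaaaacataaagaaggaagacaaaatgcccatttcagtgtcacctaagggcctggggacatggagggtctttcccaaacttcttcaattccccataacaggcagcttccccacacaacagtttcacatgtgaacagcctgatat
Olr1: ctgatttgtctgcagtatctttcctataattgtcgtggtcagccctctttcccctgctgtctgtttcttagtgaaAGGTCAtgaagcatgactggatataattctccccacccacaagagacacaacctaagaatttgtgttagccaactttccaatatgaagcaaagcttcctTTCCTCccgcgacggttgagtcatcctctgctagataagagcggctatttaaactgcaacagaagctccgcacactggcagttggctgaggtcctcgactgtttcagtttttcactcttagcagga
Timd4: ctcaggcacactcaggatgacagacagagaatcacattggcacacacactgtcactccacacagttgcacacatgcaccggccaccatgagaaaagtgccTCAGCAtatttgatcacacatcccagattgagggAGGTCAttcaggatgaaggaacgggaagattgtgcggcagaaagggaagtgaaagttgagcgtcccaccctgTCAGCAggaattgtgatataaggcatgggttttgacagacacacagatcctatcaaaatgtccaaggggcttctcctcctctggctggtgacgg
Mrc1: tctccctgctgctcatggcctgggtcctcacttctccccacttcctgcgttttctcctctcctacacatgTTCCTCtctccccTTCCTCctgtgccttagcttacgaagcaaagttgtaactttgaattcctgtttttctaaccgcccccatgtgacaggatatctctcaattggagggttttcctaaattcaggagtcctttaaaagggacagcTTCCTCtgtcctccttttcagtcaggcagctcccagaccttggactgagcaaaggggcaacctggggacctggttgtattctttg
The windows are, in this order, chr3:87357631-87357930 on the plus strand, chr1:120504975-120505274 on the minus strand, chr6:129507116-129507415 on the minus strand, chr11:46810549-46810848 on the plus strand and chr2:14229164-14229463 on the plus strand. In Cd5l a pair of TGCTGA cores face each other 54 and 46 bases before the start (counted to the leftmost base of each), separated by 2 bases, with GAGGAA on the opposite strand 66 bases before the start. The facing arrangement TGCTGANNTCAGCA, searched after it was seen in Cd5l, is in 2 of 32851 promoters, those of Cd5l and Gm33479. Mrc1 holds GAGGAA at 3 places, all on the opposite strand, and Marco holds it on the strand of the gene 146 bases before the start. Among the factors that use these cores, and chosen after their values were seen, Maf averaged 5.62 CPM in knockouts and 8.52 CPM in controls, and Spi1, which encodes PU.1, 54.9 and 80.2 CPM. Neither passed in edgeR (adjusted p = 0.364 and 0.386), and the groups overlapped for Spi1. Maf was apart only narrowly, with the highest knockout at 7.31 CPM and the lowest control at 7.41 CPM. Of all tested genes 6.81% had every knockout below every control. A part of either factor in the receptor levels was not tested.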

How the data were processed

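RNA was measured in 7 libraries of lineage-negative fetal liver cells. Per the labels' protocols, libraries were made with a stranded polyA kit. HISAT2 (alignment) and featureCounts (counting), on the mm10 build, are named in the submitters' processing notes; their versions, the annotation and the strand setting were not given in the sources used. The deposited table holds raw counts per gene symbol. The authors' deposited table holds log2 fold changes, p-values and a test score from DESeq2, and a signal column per library (size-factor scaled counts), which was not used.

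Genes were kept with filterByExpr and tested with edgeR 4.0.16 (R 4.3.3): TMM scaling, quasi-likelihood F test, group as the only term, Benjamini-Hochberg adjustment over 14679 genes, threshold 0.05, tested on simulated data. Standard errors were derived from the F statistic. Levels are CPM of the TMM-scaled library, with a prior count of 2 for log2 CPM. DESeq2 1.42.0 and limma-voom 3.58.1 were alternatives, beside other scalings, filters, a replicate block, an Xist covariate (added after the data were seen) and leaving out each library. Gene positions and exon lengths came from GENCODE vM21 (GRCm38).

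The 10 genes and the marker lists were chosen with earlier results of these data known, so no p-value is adjusted over a list alone. The genes named are the 10 receptors, Brd9, and of each list those past the threshold (at most 6), otherwise up to 4 with the smallest p, of which the text gives those that bear on the receptors; exceptions, beside markers that check the cell label, are said to be chosen after their values were seen. Libraries of the same group were compared by a chi-square test over genes, whose statistic per degree of freedom was 8.50 to 42.0, so none repeats another.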

Additional observations from a re-analysis of the deposited data

Results flagged for a closer look

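In 7 of 137 genes examined in the 4 knockouts, 1 library lay apart from the other 3. Its gap to the nearest took up 0.839 to 0.933 of the range of the 4. Chance flags about 1 in 20 groups, so 7 of 137 is near what chance gives, and the flags are listed as a description only. The genes were the receptors, Brd9 and the tested genes of the lists, and none of the 10 receptors was among the 7. Knockout replicate 1, the lowest library for 7 of the 8 tested receptors, stood low for 3 progenitor genes. Cd34, a surface protein of progenitors, had 55.6 CPM there, against 85.1 to 87.2 CPM in the other knockouts, the cytokine receptor gene Flt3 had 8.47 CPM against 18.7 to 19.9 CPM, and Gata2, a transcription factor of blood stem and mast cells, had 68.2 CPM against 92.4 to 96.0 CPM. Knockout replicate 4 stood high for the bridging ligand Mfge8, with 40.5 CPM, and for the hepatocyte gene Ttr, with 684 CPM. Knockout replicate 3 was high for the neutrophil granule gene Ngp, with 160.6 CPM, and knockout replicate 2 for the small GTPase Rac1, with 214 CPM. Controls, with 3 libraries, were not examined in this way. The part of these libraries in the receptors' values was not tested.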

How the results depend on the processing

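The number of genes called, 82 in all, was 228 without a filter on low counts, 382 by DESeq2, 52 with the Xist level as a covariate, and 20 to 120 when single libraries were left out. Of the receptors, 3 were called with all libraries, 7 with no filter, 7 with DESeq2 and between 0 (without control replicate 3) and 2 when single libraries were left out; without knockout replicate 2 or knockout replicate 4 the only call was Siglec1. All 8 tested receptors kept a negative log2 fold change in each of 15 settings, and Brd9 was called in all 15. Over the 8 receptors and 15 settings, 9 calls were gained and 16 lost against the main test. The labels number the libraries in both groups. Deviations from the group means in same-numbered libraries had correlations over genes of 0.170, -0.022 and -0.0052 for numbers 1 to 3. Pairs with different numbers ran from -0.194 to 0.129, so the number 1 pair was the highest. With only 3 same-numbered pairs, these values cannot decide whether the numbers mark pairs. With the replicate block, in which knockout replicate 4 has no partner, 121 genes and 2 receptors, Siglec1 and Olr1, were called. Depth limits Cd163, Vsig4 and the knockout level of Siglec1. The cause of these shifts was not tested.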
